A study of Rattus norvegicus with 6 samples.

Results

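The mRNAs of 9 transcription factors that keep hepatocyte identity (Hnf4a, Foxa1, Foxa2, Foxa3, Cebpa, Cebpb, Onecut1, Prox1 and Nr5a2) were followed in the livers of rats fed a control diet (CD) or a Western diet (WD). They were taken by name, with earlier results of these data known. Each symbol was found on 1 of the 33022 loci in the deposited table. Levels are given as FPKM (fragments per kilobase of transcript, scaled between libraries), a unit per length that allows genes to be compared. The values come from Cuffnorm, and the paper does not give the scaling it used between libraries. All 9 passed a minimum mean of 1 FPKM, as did 10201 loci in all.

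These proteins bind to and regulate one another's genes as well as the genes for plasma proteins, clotting factors and metabolic enzymes. FOXA1, FOXA2 and FOXA3 are winged helix proteins, and FOXA1 and FOXA2 are known as pioneer factors that open chromatin in the developing liver. HNF4A, a nuclear receptor, and CEBPA and CEBPB, basic leucine zipper proteins, drive much of the mature hepatocyte programme. ONECUT1, also named HNF6, is a cut-homeodomain activator that acts in hepatocytes and in the biliary lineage. PROX1 is a homeodomain corepressor, and NR5A2 is a nuclear receptor best known for bile acid synthesis.

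Male obesity-prone Sprague Dawley rats ate the CD (TD 08485), which is low in fat, or the WD (TD 88137), which is rich in milk fat, sucrose and cholesterol. Feeding lasted 2 weeks, after which the rats were fasted overnight and refed their own diet. Total RNA, a light fraction (mRNAs with at most 3 ribosomes) and a heavy fraction (at least 4 ribosomes) were taken from the left liver lobe. RNA of 3 rats was pooled for each of the 6 libraries, so there is 1 library for each diet and RNA and no difference has a replicate or a p-value. The 3 RNAs of a diet carry the same rat numbers, so a difference seen in all of them has not been seen in other rats. In bulk tissue, fewer cells of a type and less RNA per cell cannot be told apart.

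The libraries were liver in their markers. The summed level of 8 hepatocyte markers (Alb, Apoa1, Ttr, Cps1, Serpina1, Arg1, Asgr1 and Tat) lay between 35124 and 118197 FPKM. Of 6 cholangiocyte markers, Krt7, Spp1 and Cftr were listed at 0 in all 6 libraries, and the list summed to between 0 and 4.35 FPKM. The WD light library stood apart: its loci with a symbol summed to 866676 FPKM, against 616030 to 699570 FPKM in the other libraries, and its blood cell markers summed to 415 FPKM against 19.0 to 54.6 FPKM. The numbers of fragments behind the values could be worked out from the steps between FPKM values for 8 of the 9 factors. They sum to between 232438 and 487608 per library over all loci with such numbers. Abundant loci such as Alb have none, so these sums are only part of the depth of a library. Few fragments stood behind some of the factors. The 95% intervals given below come from the inferred fragment numbers. They cover counting error only, compare libraries and not diets, and would be narrower if the true numbers were multiples of those inferred.

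Hnf4a was the most abundant of the 9 mRNAs in each of the 6 libraries and Cebpa the second. Averaged over the libraries, Hnf4a stood at 334 FPKM, higher than 97.9% of the loci compared. Cebpa followed at 110 FPKM, and the ranges of both over the 6 libraries overlapped with no other factor. Prox1 (41.1 FPKM), Onecut1 (40.5 FPKM), Foxa3 (23.5 FPKM), Foxa1 (21.4 FPKM) and Cebpb (21.4 FPKM) came next, and each of these neighbours overlapped in range and exchanged places between libraries. Nr5a2, at a mean of 12.6 FPKM, was below Cebpb in 6 of 6 libraries with no overlap in range. Foxa2 was the least abundant in each of the 6 libraries, at a mean of 5.01 FPKM, which was higher than 40.5% of the loci compared. Its highest value, 10.9 FPKM, overlapped with the range of Nr5a2.

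**Figure D1:**
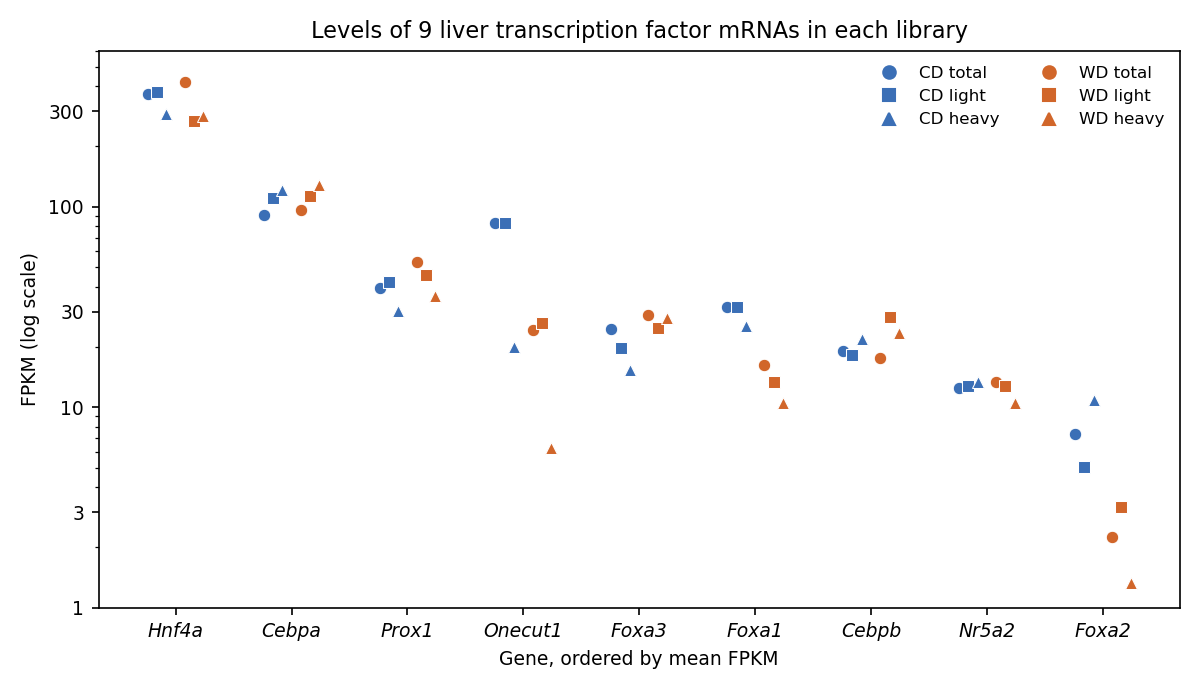
Level of each factor mRNA in each library. The vertical axis is FPKM on a log scale and the horizontal axis holds the genes in order of mean FPKM; each point is 1 library, blue for CD and orange for WD, with circles for total RNA, squares for the light and triangles for the heavy fraction. Onecut1, Foxa1 and Foxa2 have their WD points below the CD points of the same RNA, and the Onecut1 triangles lie far below its circles and squares.

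Onecut1, Foxa1 and Foxa2 were lower in the WD than in the CD library in total RNA, in the light fraction and in the heavy fraction. No factor was 1.5 times higher in the WD in all 3 RNAs. Onecut1 (Rnor_6.0, chromosome 8, 81766040 to 81793577) measured 83.1 FPKM in CD and 24.4 FPKM in WD total RNA. In the light fraction it measured 82.6 FPKM in CD and 26.4 FPKM in WD, and in the heavy fraction 19.9 FPKM in CD and 6.28 FPKM in WD. The WD value was thus the lower in each RNA, although the CD heavy fraction lay below the WD total RNA. The WD to CD ratio was 0.294 in total RNA (95% interval 0.215 to 0.396), from 203 and 57 fragments. It was 0.320 in the light fraction (0.244 to 0.418) and 0.315 in the heavy fraction (0.138 to 0.659), the last from 31 and 10 fragments. The ratio of this activator was therefore about the same wherever in the gradient its mRNA was measured.

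Foxa1 (chromosome 6, 78545803 to 78549669) measured 31.6 FPKM in CD and 16.2 FPKM in WD total RNA. The light fraction held 31.7 FPKM in CD and 13.3 FPKM in WD, and the heavy fraction 25.3 FPKM in CD and 10.5 FPKM in WD. No WD value of this pioneer factor reached the lowest CD value. Its WD to CD ratios were 0.513 (0.304 to 0.843) in total RNA, 0.420 (0.252 to 0.699) in the light fraction and 0.413 (0.184 to 0.865) in the heavy fraction. Between 11 and 51 fragments stood behind each Foxa1 value.

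Foxa2 (chromosome 3, 142383277 to 142387481) measured 7.35 FPKM in CD and 2.26 FPKM in WD total RNA. Its light fraction held 5.06 FPKM in CD and 3.20 FPKM in WD, and its heavy fraction 10.9 FPKM in CD and 1.33 FPKM in WD. Here too no WD value reached the lowest CD value, but only 2 to 17 fragments stood behind each. The ratio was 0.308 in total RNA (0.0887 to 0.868). In the light fraction it was 0.632 with an interval that held 1 (0.232 to 1.81), and in the heavy fraction it was 0.122 (0.0136 to 0.519), from 16 and 2 fragments.

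Foxa3 (chromosome 1, 79920751 to 79930263) did not share these lower values. It measured 24.7 FPKM in CD and 28.7 FPKM in WD total RNA, 19.7 and 24.7 FPKM in the light fraction, and 15.4 and 27.8 FPKM in the heavy fraction. The WD value was the higher in each RNA. The intervals of its ratios held 1 in total RNA (1.16, interval 0.789 to 1.72) and in the light fraction (1.25, interval 0.809 to 1.99), and lay above 1 in the heavy fraction (1.81, interval 1.04 to 3.24).

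The make-up of the FOXA family mRNA therefore differed between the CD and the WD library of each RNA. The Foxa1, Foxa2 and Foxa3 levels summed to 63.6 FPKM under the CD and 47.2 FPKM under the WD in total RNA, to 56.5 and 41.3 in the light fraction, and 51.5 and 39.6 in the heavy fraction. Of that sum in total RNA, Foxa3 held 38.8% under the CD and 60.9% under the WD, against 34.9% and 59.9% in the light fraction, and 29.8% and 70.3% in the heavy fraction. The largest share thus passed from Foxa1 to Foxa3 in each of the 3 RNAs. A ratio of 2 genes within a library does not depend on how libraries are scaled. In total RNA the Foxa1 to Foxa3 ratio was 1.28 under the CD and 0.564 under the WD, against 1.61 and 0.539 in the light fraction, and 1.65 and 0.376 in the heavy fraction. The WD over CD value of that ratio was 0.440 (0.229 to 0.840) in total RNA, 0.336 (0.168 to 0.669) in the light fraction and 0.228 (0.0849 to 0.597) in the heavy fraction. This pair, and the pairs of relatives below, were chosen after their values were seen.

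Onecut2, the closest relative of Onecut1, served as a second within-library reference. It measured 47.9 FPKM in CD and 47.6 FPKM in WD total RNA, 59.8 and 31.2 FPKM in the light fraction, and 16.05 and 19.3 FPKM in the heavy fraction. The WD value was lower in the light fraction, where its ratio was 0.522 (0.353 to 0.773), and near the CD value in the other RNAs. The Onecut1 to Onecut2 ratio in the WD was 0.295 (0.181 to 0.483) of that in the CD in total RNA, 0.613 (0.379 to 0.991) in the light fraction and 0.262 (0.0831 to 0.815) in the heavy fraction.

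**Figure D2:**
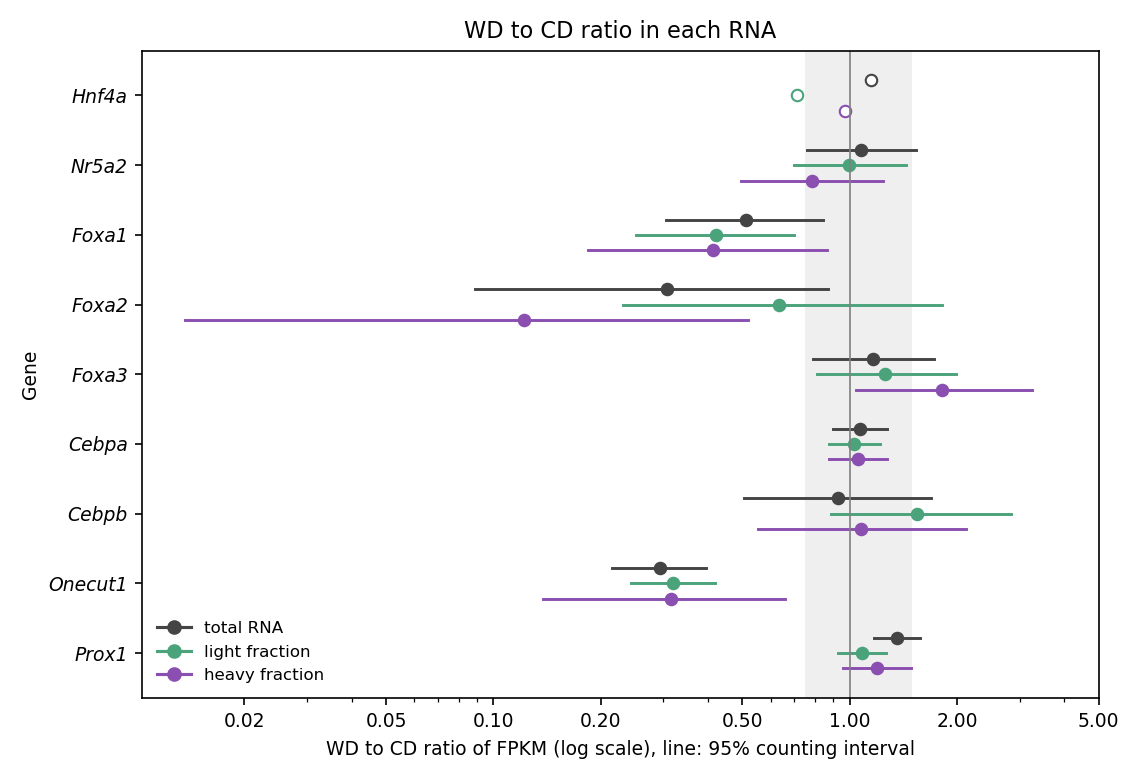
WD to CD ratio of each factor in each RNA. The horizontal axis is the ratio of FPKM on a log scale, the points are total RNA (dark), light fraction (green) and heavy fraction (purple), the lines are 95% counting intervals, the open points of Hnf4a have no interval, and the shaded band runs from 0.75 to 1.5. Onecut1 and Foxa1 have all their intervals below 1, Foxa2 has those of total RNA and of the heavy fraction below 1, and the Cebpa points sit between 1.03 and 1.07.

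The promoters of Foxa2 and Hnf4a are shown because their windows hold the core motif of ONECUT1, the factor with the lowest ratio in total RNA. RefSeq windows of assembly GRCr8, from 250 bases before to 50 bases after a gene's start, were at hand for 6 of the 9 factors, in 7 windows. None was given for Foxa1, Onecut1 and Prox1. The ONECUT letters ATCNAT, searched on both strands, were found in 22.4% of all 33465 windows of this length and in 2 of these 7. The stretches of 30 bases around each match follow, with the match in capitals, 5′ to 3′ on the strand of the gene. The Foxa2 stretch is chr3:155927627-155927656 (minus strand), where the match reads on the opposite strand, from −136 to −131 relative to the start. The Hnf4a stretch is chr3:172606179-172606208 (plus strand), where the match lies from −29 to −24 relative to the start of 1 of its 2 windows.
Foxa2: ataaggcccgatATTGATttttttttctcc
Hnf4a: gtgattagaagaATCAATaagataaccggg

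Other motifs were searched in the same way, all chosen after the windows were seen. The FOXA letters TGTTTNC (21.1% of all windows) were found in the same Hnf4a window, from −206 to −200, and did not overlap with the ONECUT match. An HNF1 motif (0.275% of all windows) was found in the other Hnf4a window, from −88 to −78. The letters for C/EBP (TTGCNNAA, 10.6%), HNF4 (CAAAGNNCA, 6.08%) and NR5A (CAAGGTCA, 1.52%) were in none of the 7 windows. A match of letters describes the window and says nothing of binding.

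Hnf4a (chromosome 3, 159902440 to 159965003) measured 366 FPKM in CD and 421 FPKM in WD total RNA. The light fraction held 375 FPKM in CD and 267 FPKM in WD, and the heavy fraction 291 FPKM in CD and 283 FPKM in WD. The ratio was above 1 in total RNA (1.15) and below 1 in the light (0.712) and heavy (0.972) fractions, so the diets kept no order over the 3 RNAs. The locus has 2 transcription start sites in the deposited table and no fragment numbers could be inferred for it. The lower bound that Cufflinks gives for it is 0 in all 6 libraries, so none of these differences has a usable error.

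Cebpa (chromosome 1, 91363491 to 91366164) was the steadiest between diets of the factors with fragment numbers. It measured 90.5 FPKM in CD and 96.9 FPKM in WD total RNA, 111 and 114 FPKM in the light fraction, and 122 and 129 FPKM in the heavy fraction. The largest of its 3 WD to CD ratios was 1.07 (0.897 to 1.28), in total RNA, from 256 and 262 fragments. A difference above 1.28 or below 0.873 times would have lain outside the counting intervals of each RNA. Levels differed more between RNAs than between diets, with the heavy fraction at 1.34 times total RNA in the CD (1.12 to 1.62) and 1.33 times in the WD (1.11 to 1.59).

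Cebpb (chromosome 3, 164424514 to 164425910), the relative of Cebpa that responds to acute signals, measured 19.0 FPKM in CD and 17.6 FPKM in WD total RNA. It measured 18.2 FPKM in CD and 28.1 FPKM in WD light fraction, and 21.8 and 23.6 FPKM in the heavy fraction. The WD light library was the highest and the other libraries lay between 17.6 and 23.6 FPKM. The intervals of all 3 ratios held 1, including the light fraction (1.54, interval 0.884 to 2.83). Within libraries, the Cebpb to Cebpa ratio in the WD was 0.864 (0.458 to 1.62), 1.5 (0.837 to 2.82) and 1.02 (0.507 to 2.07) times that in the CD in total RNA, the light and the heavy fraction.

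Prox1 (chromosome 13, 108382398 to 108443294) had more fragments than the other factors for which they were inferred, 1848 over the 6 libraries. It measured 39.3 FPKM in CD and 53.3 FPKM in WD total RNA, 42.2 and 45.7 FPKM in the light fraction, and 30.3 and 36.0 FPKM in the heavy fraction. The WD value was the higher in each RNA. The total RNA ratio of 1.36 had an interval above 1 (1.17 to 1.58) but did not reach 1.5, and those of the light fraction (1.08, interval 0.927 to 1.27) and the heavy fraction (1.19, interval 0.958 to 1.48) held 1.

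Nr5a2 (chromosome 13, 53750472 to 53870428) varied least over the 6 libraries, by 1.27 times from the lowest to the highest. It measured 12.4 FPKM in CD and 13.4 FPKM in WD total RNA, 12.8 and 12.7 FPKM in the light fraction, and 13.4 and 10.5 FPKM in the heavy fraction. The intervals of its ratios held 1 in total RNA (1.08, interval 0.758 to 1.53), the light fraction (0.998, interval 0.700 to 1.44) and the heavy fraction (0.785, interval 0.495 to 1.24). Its level rested on 37 to 102 fragments per library.

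Read against all loci, ratios of at most 0.75 were common in any 1 RNA and less so in all of them. In total RNA, 3 of the 9 factors were at most 0.75 times the CD level, as were 22.7% of the loci compared, and 0 were at least 1.5 times (17.7% of loci). In the light fraction 4 were at most 0.75 times (26.8% of loci), namely Hnf4a and the 3 above, and 1, Cebpb, was at least 1.5 times (25.9%). In the heavy fraction 3 were at most 0.75 times (25.8%) and 1, Foxa3, was at least 1.5 times (21.7%). At most 0.75 times in all 3 RNAs were Onecut1, Foxa1 and Foxa2, 3 of 9 factors, against 2.52% of the loci compared, and at least 1.5 times in all 3 were 0 of 9 against 2.23%. With the minimum mean raised to 10 FPKM, which leaves out Foxa2, the share was 2 of 8 factors against 2.24%. With the limits set on CD over WD, it was 3 of 9 against 1.52%, Prox1 (0.737) passed in total RNA as higher in the WD, and Hnf4a did not pass in the light fraction. Counting intervals lay below 1 in all 3 RNAs for Onecut1 and Foxa1, 2 of 8 factors, against 0.601% of 7486 loci. The 9 factors were chosen with earlier results of these data known, so these shares cannot show that the set stands out.

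Taken in each RNA, counting intervals lay below 1 for 3 of 8 factors in total RNA (4.38% of loci), 2 in the light fraction (9.79%, with 0 above against 8.76%) and 3 in the heavy fraction (4.66%). They lay above 1 for Prox1 in total RNA (4.18% of loci) and for Foxa3 in the heavy fraction (3.86%). The bounds that Cufflinks itself gives are wider, and overlapped between the diets for 9 of 9 factors in each RNA. Over all loci these bounds were apart for 0.0392% in total RNA, 0.48% in the light fraction and 0.0882% in the heavy fraction. The median log2 change of the 9 factors was 0.10 in total RNA, 0.00 in the light fraction and −0.04 in the heavy fraction, against 0.02, 0.02 and −0.02 over all loci.

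The WD light values depend on scaling. With equal sums of FPKM over loci with a symbol in every library, the median log2 change of all loci in the light fraction went from 0.02 to −0.29. Loci at most 0.75 and at least 1.5 times went from 26.8% and 25.9% to 44.2% and 17.3%. Under that scaling the light fraction log2 change of Cebpb was 0.27, no longer 1.5 times, and those of Cebpa (−0.31), Prox1 (−0.24) and Foxa3 (−0.03) were below 0. The log2 changes of Onecut1 (−1.99), Foxa1 (−1.59) and Foxa2 (−0.99) in the light fraction stayed on the lower side.

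Ribosome density was taken, after the study, as heavy over light fraction FPKM. Since FPKM is relative to each library, a ratio of 1 does not mean equal numbers of molecules in both fractions. Onecut1 had the lowest ratio of the 9 factors in both diets. Its heavy to light ratio was 0.241 in the CD (0.158 to 0.358) and 0.237 in the WD (0.110 to 0.456). The light fraction of Onecut1 was at the level of total RNA, at 0.994 times in the CD (0.795 to 1.24) and 1.08 times in the WD (0.773 to 1.53). Its heavy fraction was 0.240 times total RNA in the CD (0.159 to 0.351) and 0.257 times in the WD (0.117 to 0.509).

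Prox1 was the other factor whose interval lay below 1 in both diets, with a heavy to light ratio of 0.718 in the CD (0.582 to 0.883) and 0.789 in the WD (0.665 to 0.933). Intervals below 1 were found for 2 of 8 factors in both diets, against 13.9% of loci in the CD and 17.9% in the WD, and above 1 for 0 of 8, against 16.2% and 19.8%. With equal library sums, the Prox1 log2 ratio in the WD was −0.03, against −0.34 before. Cebpa had ratios of 1.10 (0.906 to 1.33) and 1.13 (0.963 to 1.32). Foxa1 had ratios of 0.798 (0.461 to 1.36) in the CD and 0.784 (0.356 to 1.60) in the WD. For Hnf4a the ratio was 0.777 in the CD and 1.06 in the WD, with no interval. The intervals of Foxa3, Cebpb, Nr5a2 and Foxa2 held 1 in both diets, and the Foxa2 ratio of 2.15 in the CD had an interval of 0.867 to 5.80.

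Against all loci, 2 of the 9 factors (Onecut1 and Prox1) had a heavy to light ratio of at most 0.75 in the CD, as did 36.6% of loci, and 1 (Foxa2) had at least 1.5 (32.9%). In the WD, 2 (Onecut1 and Foxa2) had at most 0.75 (38.5%) and 0 had at least 1.5 (31.4%). Equal library sums turned the shares in the WD to 31.8% lower and 40.3% higher. The heavy fraction was at most 0.75 times total RNA for Onecut1 and Foxa3 in the CD (34.1% of loci), and for Hnf4a, Foxa1, Foxa2, Onecut1 and Prox1 in the WD (35.1%), and at least 1.5 times for 0 of 9 in either diet (29.3% and 27.7% of loci). The light fraction was at most 0.75 times total RNA for Foxa2 in the CD (33.0%) and for Hnf4a in the WD (30.9%), and at least 1.5 times for 0 of 9 in the CD (23.9%) and for Cebpb in the WD (28.0%). For the WD, equal library sums turned these light fraction shares of loci to 51.5% lower and 15.9% higher, with 5 factors lower and 0 higher. The factors at most 0.75 times total RNA in the heavy fraction then numbered 3 in the CD (35.2% of loci) and 6 in the WD (40.3%).

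**Figure D3:**
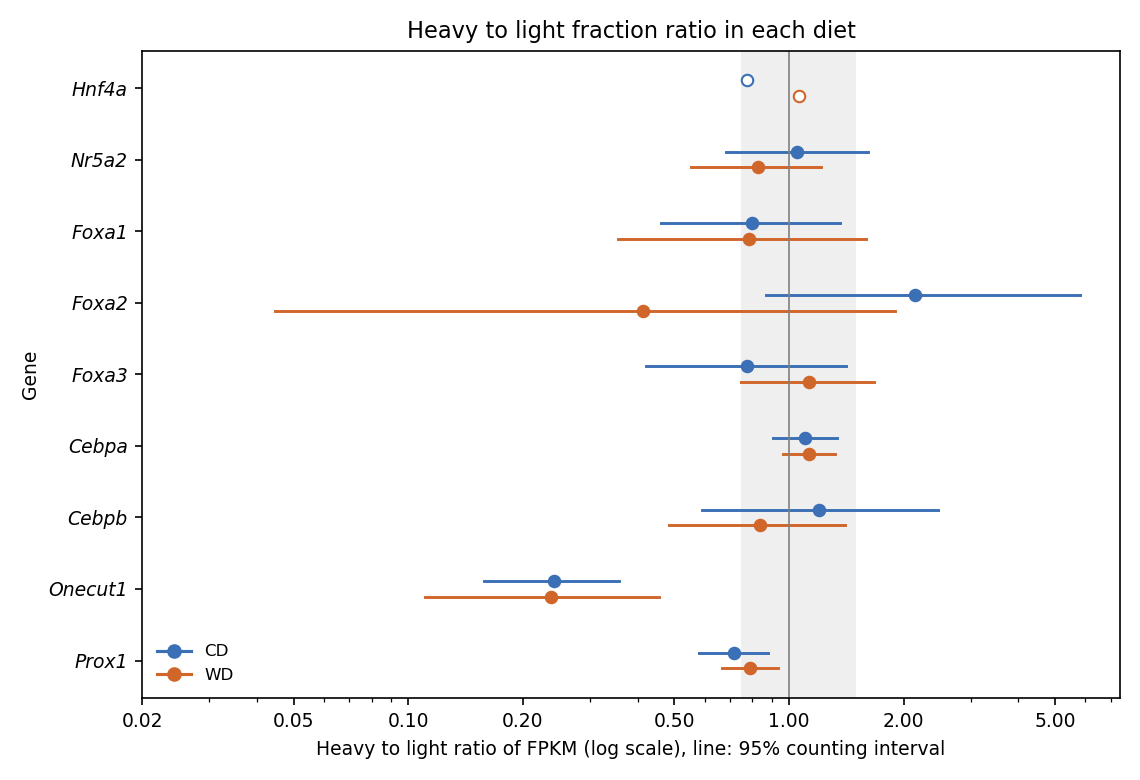
Heavy to light fraction ratio of each factor in each diet. The horizontal axis is the ratio of FPKM on a log scale, blue points are CD and orange points WD, the lines are 95% counting intervals, the open points of Hnf4a have no interval, and the shaded band runs from 0.75 to 1.5. Onecut1 sits near 0.24 in both diets and the interval of Prox1 lies below 1 in both.

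The ribosome density of the factors was not detectably different between the diets at this depth. For the 8 factors with fragment numbers, all intervals of the WD over CD density ratio held 1. The share of all loci whose density interval held 1 was not computed, so this count cannot be read against them. The density ratio was 0.984 for Onecut1 (0.411 to 2.19), 0.982 for Foxa1 (0.377 to 2.48), 1.03 for Cebpa (0.799 to 1.32) and 1.10 for Prox1 (0.839 to 1.44). Differences up to those bounds could not be seen. Foxa2 (0.193, interval 0.0182 to 1.28) and Cebpb (0.700, interval 0.283 to 1.73) were at most 0.75, as were 36.1% of the loci compared, and 0 of 9 were at least 1.5 (27.7%). Hnf4a had a density ratio of 1.36 with no interval. The study set the same limits on CD over WD. In that direction 1 factor, Foxa2 (5.18), was at least 1.5, as were 30.9% of loci, and 2, Foxa3 (0.691) and Hnf4a (0.733), were at most 0.75 (32.9%), with Cebpb at 1.43. Equal library sums turned the WD over CD shares of loci to 27.0% lower and 38.0% higher, with 1 factor lower and 2 higher. For Cebpb the log2 density change was −0.51, and 0.22 where the heavy fraction was set against total RNA.

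Of 27 other liver transcription factors, listed for comparison, 26 passed the minimum level. In total RNA 8 of the 26 were at most 0.75 times the CD level and 2 at least 1.5 times, in the light fraction 7 and 7, and in the heavy fraction 11 and 5. Over all loci these shares were 22.7% and 17.7%, 26.8% and 25.9%, and 25.8% and 21.7%. The median log2 changes of the 26 factors were −0.14, 0.09 and −0.19. Hhex, a homeodomain factor of early liver development, was the only factor of this list at most 0.75 times in all 3 RNAs. Over all loci, 2.52% were. Hhex measured 112 FPKM in CD and 41.6 FPKM in WD total RNA, 159 and 47.5 FPKM in the light fraction, and 161 and 47.3 FPKM in the heavy fraction. Its ratio in total RNA was 0.373 (0.280 to 0.491), next to 0.294 for Onecut1. The log2 heavy to light ratio of Hhex was 0.02 in the CD and −0.01 in the WD, against −2.05 and −2.06 for Onecut1. Tbx3, a T-box repressor, was the only listed factor at least 1.5 times higher in all 3 RNAs, with log2 changes of 1.18, 1.22 and 0.86. Its levels lay between 3.15 and 9.90 FPKM, and with no fragment numbers inferred these changes have no interval. Over all loci, 2.23% passed that limit in all 3 RNAs.

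Genes that these factors are known to bind lay on both sides of their CD level. Of 27 such hepatocyte genes, 26 were found and compared. In total RNA 3 were at most 0.75 times the CD level and 3 at least 1.5 times, in the light fraction 7 and 5, and in the heavy fraction 4 and 1. Over all loci these shares were 22.7% and 17.7%, 26.8% and 25.9%, and 25.8% and 21.7%. The median log2 changes of the 26 genes were −0.05, −0.01 and −0.11. In all 3 RNAs, 0 were at most 0.75 times (2.52% of all loci) and 1 was at least 1.5 times (2.23%). That gene was Cyp7a1, the rate-limiting enzyme of bile acid synthesis and a known NR5A2 and HNF4A target. Cyp7a1 measured 22.2 FPKM in CD and 50.6 FPKM in WD total RNA, 30.6 and 58.8 FPKM in the light fraction, and 28.4 and 56.6 FPKM in the heavy fraction. Pklr, the liver pyruvate kinase, had a log2 change of −1.14 in total RNA, −0.33 in the light fraction and −0.60 in the heavy fraction. The interval of its ratio held 1 in the light fraction (0.535 to 1.20) and lay below 1 in total RNA (0.305 to 0.657) and the heavy fraction (0.451 to 0.957). In the gradient, 16 of 26 targets had a heavy to light ratio of at least 1.5 in the CD and 16 in the WD. Over all loci, 32.9% and 31.4% did. The median log2 ratios of the targets were 0.91 and 0.93. Of the 9 factors, 1 and 0 passed that limit, with medians of −0.32 and −0.27. That difference was not tested.

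Markers of other cell types are given beside these values. The 6 Kupffer cell and macrophage markers summed to 55.3 FPKM in CD and 84.1 FPKM in WD total RNA, 55.3 and 62.7 FPKM in the light fraction, and 117 and 153 FPKM in the heavy fraction. In total RNA 4 of 6 were at least 1.5 times and 0 at most 0.75 times, in the light fraction 2 and 2, and in the heavy fraction 2 and 1. Over all loci these shares were 17.7% and 22.7%, 25.9% and 26.8%, and 21.7% and 25.8%. Of the 4, the total RNA intervals of Cd68 (0.881 to 7.75), Cd163 (0.726 to 6.79) and Marco (0.899 to 3.10) held 1, and Csf1r had none. The 4 endothelial markers found summed to 53.4 FPKM in CD against 70.9 FPKM in WD total RNA, 48.7 against 56.2 FPKM in the light fraction, and 64.6 against 62.9 FPKM in the heavy fraction. The 5 stellate cell markers found summed to 42.2 against 51.8 FPKM in total RNA, 52.1 against 42.5 FPKM in the light fraction, and 49.4 against 75.9 FPKM in the heavy fraction. The hepatocyte markers summed to 68125 FPKM in CD and 61390 FPKM in WD total RNA, where 2 of 8, Apoa1 and Ttr, were at most 0.75 times and 0 at least 1.5 times. In the light fraction 2 of 8 hepatocyte markers were at most 0.75 times and 1 at least 1.5 times. In the heavy fraction 0 of 8 passed either limit. The part of cell make-up in the lower Onecut1, Foxa1 and Foxa2 values was not tested.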

How the data were processed

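Livers of CD and WD rats gave total, light fraction and heavy fraction RNA, pooled from 3 rats per library, with ribosomal RNA removed. The authors used TopHat for alignment to Rnor_6.0 and deposited FPKM values from the Cufflinks pipeline (Cufflinks, Cuffnorm, per the labels), with lower and upper bounds. The annotation is not given in the sources used here, and whether fraction reads took the separate route described for Riboseq is not certain.

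Loci were kept where they had a symbol, no failed estimate and 1 FPKM or more on average. Log2 changes were computed from the deposited FPKM values plus 0.1 FPKM, which understates changes of low genes. Each ratio is of the authors' FPKM, and the limits of 1.5 and 0.75 are those of the study, which set them on the CD over WD ratio of ribosome density, whereas here they were set on WD over CD and, as an added alternative, on CD over WD. Fragment numbers were inferred as the whole numbers that 1 step per gene and 1 factor per library explain, within 0.005 fragments, with the factors that gave the smallest numbers, of which 51.1% to 54.5% were odd in each library. Of 11583 loci above 0 in 4 or more libraries, 79.9% were given numbers, and 0.397% after a jitter of 1%. Of 39463 values up to 30 fragments, 79.4% had the relative Cufflinks bound commonest for their number, as did 17 of 17 such values of the 9 factors. Intervals are exact binomial (Clopper-Pearson) or, for density, conditional odds ratio intervals. Reads lack molecular identifiers, so the fragments need not be independent molecules. Scripts were tested on simulated data.

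With 1 library per condition no test was run. The 9 factors and all lists were chosen with earlier results of these data known. Of each list, the 2 with the largest change and the 2 most abundant could be named, with like-pattern loci for Hnf4a and Cebpa; relatives were named after their values were seen. Promoter windows came from RefSeq (GRCr8) and were not combined with Rnor_6.0 coordinates. Alternatives were other pseudocounts, filters, scalings, limits, loci summed by symbol, and the heavy fraction over total RNA. The tools were scipy 1.17.1, numpy 2.4.6, pandas 2.3.3, matplotlib 3.10.9 and Python 3.11.15.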

Additional observations from a re-analysis of the deposited data

How the results depend on the processing

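No paired analysis was possible because 1 library stands for each diet and RNA, and for the same reason no replicate could be left out. Of 112 recomputed values of the factors' medians and of their count lower in total RNA, 111 moved less than the counting interval or, for the count, 1.5 times. For a median, that interval ran between the medians of the factors' own interval bounds. A minimum mean of 0.1 FPKM, no filter, and loci summed by symbol could not change the factors. All 9 pass 1 FPKM, each on 1 locus. Those alternatives are counted here and among the other values below, so the tallies overstate stability. The median log2 ratio of light fraction over total RNA in the WD was −0.56 with equal library sums of FPKM, against −0.07, and the median over all loci went from 0.01 to −0.45. The counts at most 0.75 and at least 1.5 times there went from 1 and 1 to 5 and 0. The shares of loci went from 30.9% and 28.0% to 51.5% and 15.9%. The log2 density change of Cebpb reversed, from −0.51 to 0.22, with heavy over total in place of heavy over light; the cause was not tested. Of the other values, 1058 were alike and 39 moved, 20 of these with equal library sums. With limits on CD over WD, density counts went from 2 lower and 0 higher to 1 and 2 (30.9% and 32.9% of loci). In total RNA 1 factor was then higher (23.9% of loci).

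The log2 changes of Onecut1 lay from −1.79 to −1.67 in total RNA, −1.99 to −1.61 in the light and −1.68 to −1.52 in the heavy fraction over 10 alternatives. Those of Foxa1 lay from −0.98 to −0.86, −1.59 to −1.19 and −1.29 to −1.20. Those of Foxa2 lay from −1.70 to −1.36, −0.99 to −0.53 and −3.03 to −2.35 over 9 alternatives, since a mean of 10 FPKM leaves it out. Only other pseudocounts, equal library sums and centring on the median of all loci could change these values. The other filters, other limits and loci summed by symbol could not. With limits of 2 and 0.5, factors on the lower side numbered 2, 2 and 3 of 9, against 8.87%, 10.4% and 11.6% of loci. On the higher side they numbered 0 in each RNA, against 9.60%, 16.3% and 13.0%. Alternatives for the light and heavy fractions and the limits on CD over WD were added after the data were seen. Depth limits Foxa2, Cebpb and every density value.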

Other observations

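Among 3743 loci of 10 FPKM or more on average, with a symbol on 1 locus and no library at 0, the pattern over the 6 libraries nearest to Hnf4a was that of Atp6v0c, a subunit of the vacuolar proton pump, with a root mean square log2 difference of 0.06. Ptbp3 (0.06), a splicing regulator, and Dst (0.07), a cytoskeletal linker, followed. Atp6v0c measured 182 FPKM in CD and 186 FPKM in WD total RNA, 174 and 129 FPKM in the light fraction, and 142 and 137 FPKM in the heavy fraction. The WD light library was the lowest for this gene, as it was for Hnf4a. Nearest to Cebpa were Tnpo1 (0.04), a nuclear import receptor, Evi5 (0.06) and Nfx1 (0.06). Tnpo1 measured 12.7 FPKM in CD and 12.7 FPKM in WD total RNA, 14.6 and 15.1 FPKM in the light fraction, and 15.8 and 16.6 FPKM in the heavy fraction. Likeness over 6 libraries is a description and was not tested.

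Of 12 coregulators of these factors, 11 were compared. In total RNA 2 were at most 0.75 times the CD level and 1 at least 1.5 times, in the light fraction 2 and 3, and in the heavy fraction 1 and 3. Over all loci these shares were 22.7% and 17.7%, 26.8% and 25.9%, and 25.8% and 21.7%. The median log2 changes of the 11 were −0.17, 0.24 and 0.24. In all 3 RNAs, 0 of the 11 passed a limit in the same direction (2.52% of all loci lower, 2.23% higher). Hdac3, a histone deacetylase, went in different directions, with log2 changes of −1.64 in total RNA, 2.08 in the light fraction and 2.02 in the heavy fraction. Its levels lay between 1.46 and 11.2 FPKM. No fragment numbers could be inferred for Hdac3, so these changes have no interval.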
